A study of Mus with 8 samples.

Results

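The 10 lipid-handling macrophage genes Gpnmb, Spp1, Trem2, Apoe, Lpl, Cd36, Fabp4, Fabp5, Lgals3 and Pparg were followed through 8 RNA-seq libraries of mouse bone marrow monocytes held in stiff hydrogels. The genes were chosen as a fixed list of 10 Ensembl IDs, with earlier results of these data known. All 10 were present among the 17640 IDs of the count table. All 10 passed the filter on low counts, which kept 14785 IDs. Their symbols came with the list.

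The cells came from mice on the C57BL/6 strain, and monocytes were isolated by negative selection. Jak2 V617F cells carried the Vav-iCre transgene and a knock-in V617F allele at the endogenous Jak2 gene, the activating mutation of myeloproliferative neoplasm. Control cells carried Vav-iCre alone, so the Cre was shared by both genotypes; Vav sequences drive it in blood cells. Each genotype was cultured in elastic gel and in viscous gel with the cytokines GM-CSF at 100 ng/mL and IL4 at 200 ng/mL plus prostaglandin E2 (PGE2) at 100 ng/mL, and cells were taken on day 3. The 4 groups were Jak2 V617F cells in elastic gel, Jak2 V617F cells in viscous gel, control cells in elastic gel and control cells in viscous gel, with 2 libraries each. The study set both gels, each stiff, side by side to see how elasticity acts on the cells; the chemistry of the gels may differ too (library titles call the elastic gel NbTz and the viscous one VLVG), which cannot be told apart from elasticity. Age, sex and the number of mice behind a library are not given in the labels.

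Library titles end in a number that 1 elastic and 1 viscous library of a genotype share. The lower and higher numbers are called J1 and J2 in Jak2 V617F cells and C1 and C2 in control cells. Whether such a number stands for a mouse, a culture or a day is not in the labels, so the p-values cover only variation among libraries, part of which may be technical. Library totals were 30632355 to 38408851 counts. Both C1 libraries stood apart from the other 6 across all IDs, with scores of 69.4 in elastic and 78.2 in viscous gel on the first principal component (41.5% of the variance), against −37.1 to −10.9 in the others. For the gel effects and the genotype effects on summed counts, values without them are given too.

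Macrophages that take up much lipid, as in atherosclerotic plaques, adipose tissue and injured nerve, share a programme of surface receptors, secreted proteins and fatty acid carriers. Trem2 is a receptor for lipids and lipoproteins, Apoe among them, and Cd36 is a scavenger receptor for fatty acids and oxidised lipoprotein. Pparg is the nuclear receptor that binds fatty acid ligands and promotes transcription of Cd36, Fabp4 and Lpl, and IL4 and GM-CSF are both known to raise it in myeloid cells.

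In the GRCm38 annotation of RefSeq, all 10 are protein-coding genes. The surface receptors and phagocyte genes are Trem2 (ENSMUSG00000023992) at chr17:48346401-48352276, Cd36 (ENSMUSG00000002944) at chr5:17781690-17888959 and Gpnmb (ENSMUSG00000029816) at chr6:49036518-49058182. Those for secreted proteins are Apoe (ENSMUSG00000002985) at chr7:19696244-19701310, Lpl (ENSMUSG00000015568) at chr8:68880555-68906932, Spp1 (ENSMUSG00000029304) at chr5:104435111-104441053 and Lgals3 (ENSMUSG00000050335) at chr14:47373860-47386167. Pparg (ENSMUSG00000000440) lies at chr6:115360879-115490404. The fatty acid carriers Fabp5 (ENSMUSG00000027533, chr3:10012585-10016610) and Fabp4 (ENSMUSG00000062515, chr3:10204342-10208616) lie 187731 bases apart with 4 genes between them. That annotation holds 1 pseudogene whose symbol begins with Fabp5, and copies under other symbols were not sought. The estimated counts of Fabp5 could include reads from a similar copy, but no sequences were compared.

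Levels are given as CPM, the count in each 1000000 of the library total after TMM scaling, which corrects for a few abundant genes taking up a library. Transcript lengths were not used, so levels are compared between libraries and not between genes. The depth was ample for 9 of the genes, whose lowest count in any library lay between 243 (Apoe) and 70397 (Gpnmb). For Pparg it was 68 counts, with an exact Poisson 95% interval of 52.8 to 86.2, which covers counting error only.

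Lpl, the secreted lipase that frees fatty acids from triglyceride-rich lipoproteins, was the member whose level followed the genotype. Jak2 V617F cells held 326 (J1) and 278.3 CPM (J2) in elastic gel and 360.1 and 342.2 CPM in viscous gel. Control cells held 183.9 (C1) and 147.9 CPM (C2) in elastic gel and 171.2 and 130.3 CPM in viscous gel. The lowest Jak2 V617F library was thus above the highest control library. Over all IDs tested, 3.5% separated the genotypes in this direction, and among the members Lpl alone did. In the reverse direction 3.39% of IDs and 0 members separated them. Without the C1 libraries Lpl, Apoe and Pparg lay higher in every Jak2 V617F library than in both control libraries, against 11.7% of IDs, and 0 members lay lower, against 12.2%.

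Pparg was higher in 1 group than in the other 3. Jak2 V617F cells in viscous gel held 5.14 (J1) and 6.60 CPM (J2), while Jak2 V617F cells in elastic gel held 3.23 and 3.00 CPM. Control cells held 3.65 (C1) and 2.37 CPM (C2) in elastic gel and 3.35 and 2.12 CPM in viscous gel. The lowest library of the viscous Jak2 V617F group was above every library of the other groups, which overlapped one another. Lpl was also highest in that group, and these 2 of 10 members compare with 4.08% of all IDs.

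Spp1 encodes osteopontin, a secreted ligand of integrins and CD44. Jak2 V617F cells held 500.9 (J1) and 531.2 CPM (J2) in elastic gel and 296.8 and 425.3 CPM in viscous gel. Control cells held 1432 (C1) and 672.1 CPM (C2) in elastic gel and 1144 and 488.3 CPM in viscous gel. Within each gel both Jak2 V617F libraries lay below both control libraries, but the C2 library in viscous gel lay below both Jak2 V617F libraries in elastic gel. Lgals3 was the other of 2 members that lay below control in each gel taken alone, as did 6.96% of all IDs.

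Apoe, the apolipoprotein that carries cholesterol out of macrophages, varied most. Jak2 V617F cells held 13.2 (J1) and 26.6 CPM (J2) in elastic gel and 57.9 and 14.03 CPM in viscous gel. Control cells held 175.2 CPM in the C1 and 10.8 CPM in the C2 library in elastic gel, and 249.4 and 7.56 CPM in viscous gel. The highest and the lowest library were thus both control cells in viscous gel, 33.0-fold apart.

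**Figure D1:**
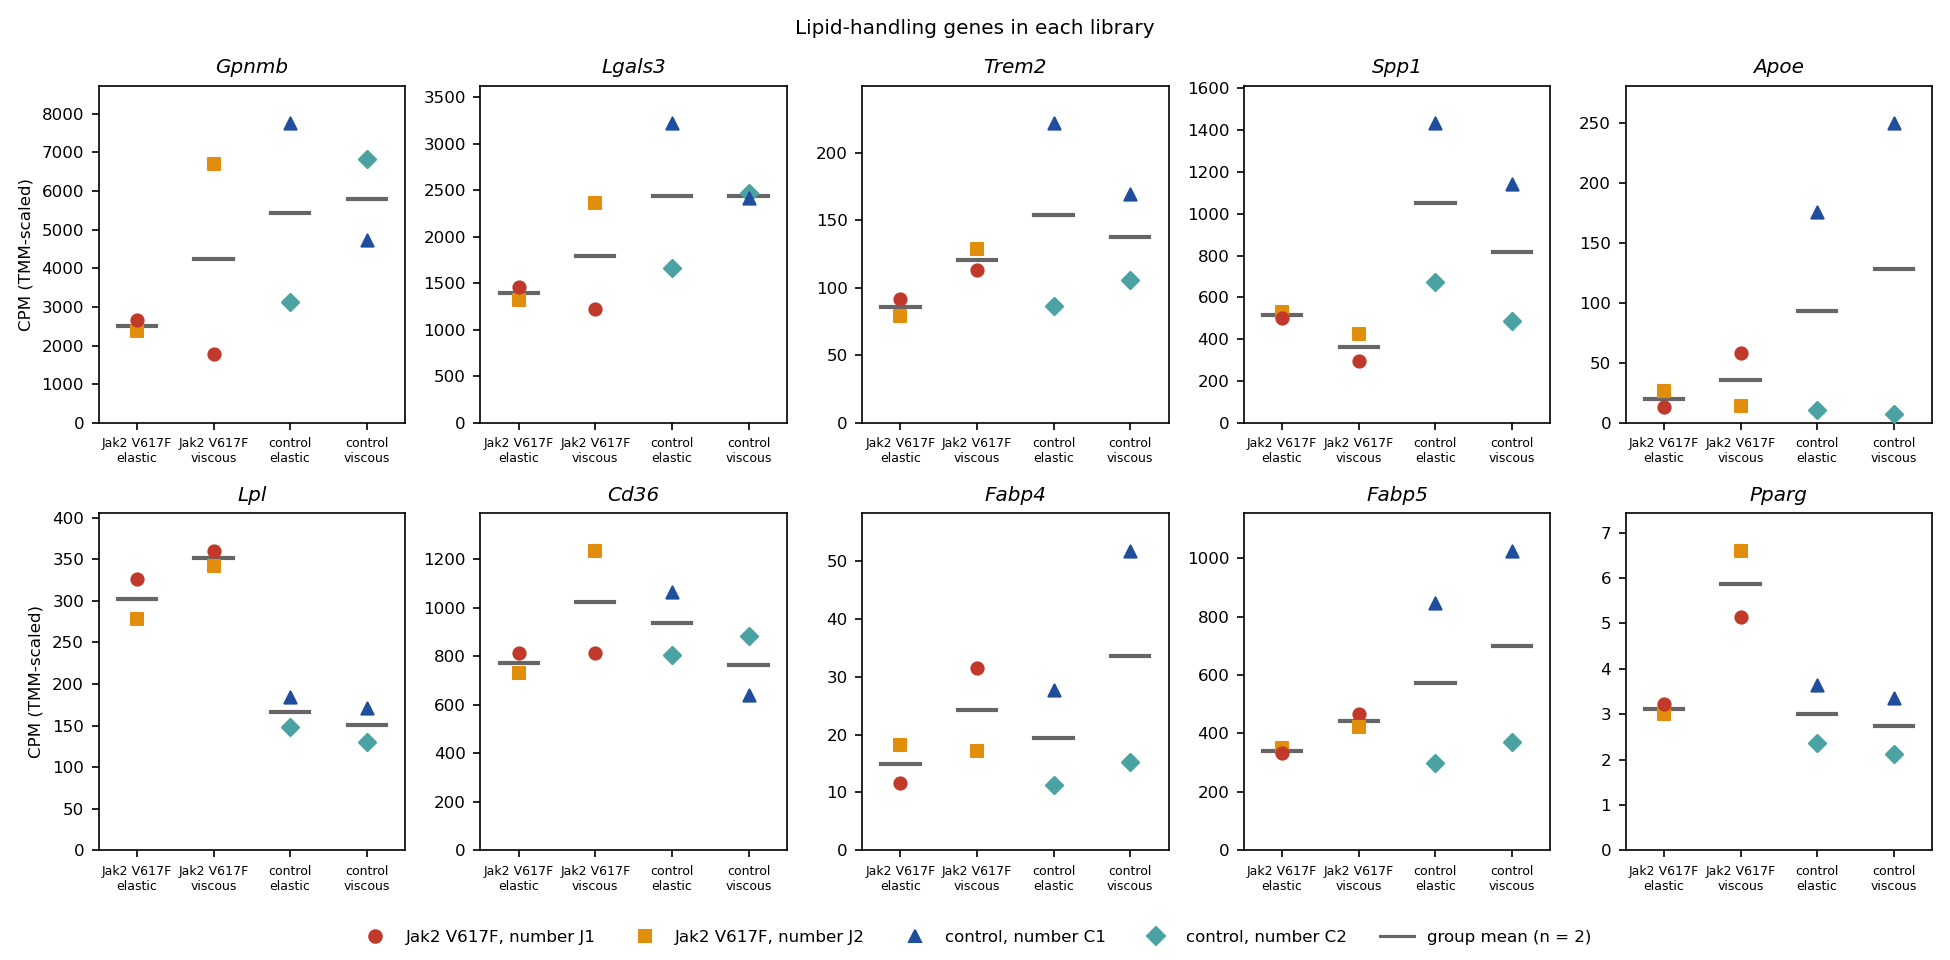
Level of each of the 10 genes in CPM (linear axes from 0) in each library, by group; symbols mark the title number and bars the mean of 2 libraries. Lpl is higher in all 4 Jak2 V617F libraries (278.3 to 360.1 CPM) than in all 4 control libraries (130.3 to 183.9 CPM), while Apoe is high in the 2 control libraries of number C1.

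The intracellular fatty acid carriers followed the title number in control cells. Fabp5 stood at 331.8 (J1) and 349.1 CPM (J2) in mutant cells in elastic gel and at 466.3 and 420.7 CPM in viscous gel. In control cells it stood at 848 (C1) and 299.1 CPM (C2) in elastic gel and at 1025 and 371.8 CPM in viscous gel. Both C1 libraries thus lay above the 6 others, which spanned 299.1 to 466.3 CPM. Fabp4 stood at 11.7 (J1) and 18.2 CPM (J2) in Jak2 V617F cells in elastic gel and at 31.4 and 17.2 CPM in viscous gel. Control cells held 27.6 (C1) and 11.2 CPM (C2) of it in elastic gel and 51.7 and 15.3 CPM in viscous gel. Its 4 highest libraries, both C1 libraries, J1 in viscous gel and J2 in elastic gel, were also the 4 highest for Apoe.

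Gpnmb, a transmembrane glycoprotein of lysosome-rich macrophages, and Lgals3, the lectin galectin-3, had the same 4 libraries at the top. These were both C1 libraries, the C2 library in viscous gel and the J2 library in viscous gel. Gpnmb stood at 2654 (J1) and 2366 CPM (J2) in Jak2 V617F cells in elastic gel and at 1782 and 6706 CPM in viscous gel. In control cells it stood at 7751 (C1) and 3128 CPM (C2) in elastic gel and at 4737 and 6828 CPM in viscous gel. The 2 libraries of the viscous Jak2 V617F group were the lowest of all 8 (J1) and the third highest (J2). Lgals3 stood at 1457 and 1325 CPM in mutant cells in elastic gel and at 1228 and 2362 CPM in viscous gel (J1 first). In control cells it stood at 3219 and 1669 CPM in elastic gel and at 2419 and 2467 CPM in viscous gel (C1 first), so J1 in viscous gel was the lowest library for both genes.

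Cd36 had the smallest range of the 10, 1.92-fold between the extremes. Jak2 V617F cells held 811.3 (J1) and 731.1 CPM (J2) in elastic gel and 815.2 and 1234 CPM in viscous gel. Control cells held 1066 (C1) and 806.5 CPM (C2) in elastic gel and 642.2 and 882.6 CPM in viscous gel. The genotypes overlapped in both gels.

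Trem2 stood at 91.6 (J1) and 79.4 CPM (J2) in Jak2 V617F cells in elastic gel and at 113.1 and 128.4 CPM in viscous gel. Control cells held 221.7 (C1) and 86.5 CPM (C2) in elastic gel and 169.7 and 105.6 CPM in viscous gel. The C1 libraries were the 2 highest, and both viscous Jak2 V617F libraries came next. Trem2, Fabp5 and Pparg had these same 4 libraries at the top, in differing orders. Here, and for Apoe with Fabp4 and Gpnmb with Lgals3, the share of all IDs with the same top libraries was not computed. Both C1 libraries are in each of these sets, and they stood apart across all IDs.

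**Figure D2:**
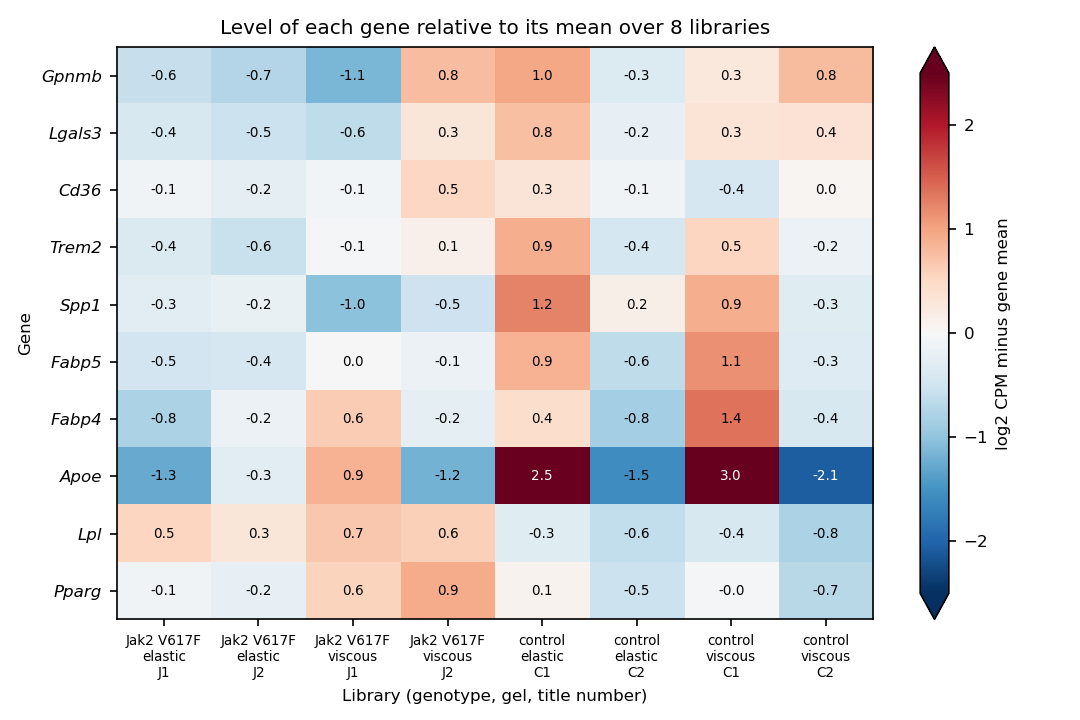
Heat map of log2 CPM minus the mean of the gene over the 8 libraries (columns; red above, blue below the mean; values printed in the cells). Both C1 libraries are above the mean for 7 genes (Gpnmb, Lgals3, Trem2, Spp1, Fabp5, Fabp4 and Apoe), whereas Lpl is above its mean in all 4 Jak2 V617F libraries and below it in all 4 control libraries.

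The spread within groups was wide for most members. The SD of log2 CPM within groups had a median of 0.58 over the 10 members and 0.26 over all IDs tested, and 9 of the 10 lay above the latter. It was 2.41 for Apoe, larger than for 99.49% of the IDs tested, 0.86 for Fabp4, 0.84 for Gpnmb and 0.74 for Fabp5. Lpl had the smallest, 0.20, with 37.3% of the IDs below it. Whether the composition of the cell preparations moved with these values was not tested, because the IDs of cell type markers could not be paired with symbols. In bulk RNA, fewer cells of a type and less RNA per cell cannot be told apart.

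Of the 10 members, 4 were at least 2-fold higher in C1 than in C2 control cells in both gels, against 5.48% of all IDs tested. They were Apoe, Fabp5, Fabp4 and Spp1. The Apoe ratio was 16.2 in elastic and 33.0 in viscous gel, and for Fabp5 the ratios were 2.84 and 2.76. For Fabp4 they were 2.46 and 3.39, and for Spp1 2.13 and 2.34. Trem2 (2.56 and 1.61), Pparg (1.54 and 1.58) and Lpl (1.24 and 1.31) were also higher in C1 cells in both gels. In all, 7 of the 10 members were, against 35% of all IDs tested. Gpnmb, Lgals3 and Cd36 were higher in C1 cells in elastic gel (2.48-fold, 1.93-fold and 1.32-fold), but had ratios of 0.69, 0.98 and 0.73 in viscous gel.

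In Jak2 V617F cells 2 members kept 1 order of the title numbers in both gels, Spp1 (J1 to J2 ratios of 0.94 in elastic and 0.70 in viscous gel) and Lpl (1.17 and 1.05). The share of all IDs that kept 1 order was not computed. Apoe had a J1 to J2 ratio of 0.50 in elastic and 4.12 in viscous gel, and Fabp4 had ratios of 0.64 and 1.83. Gpnmb ran the other way, with ratios of 1.12 in elastic and 0.27 in viscous gel. Fabp5 was close to 1 in both gels (0.95 and 1.11).

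**Figure D3:**
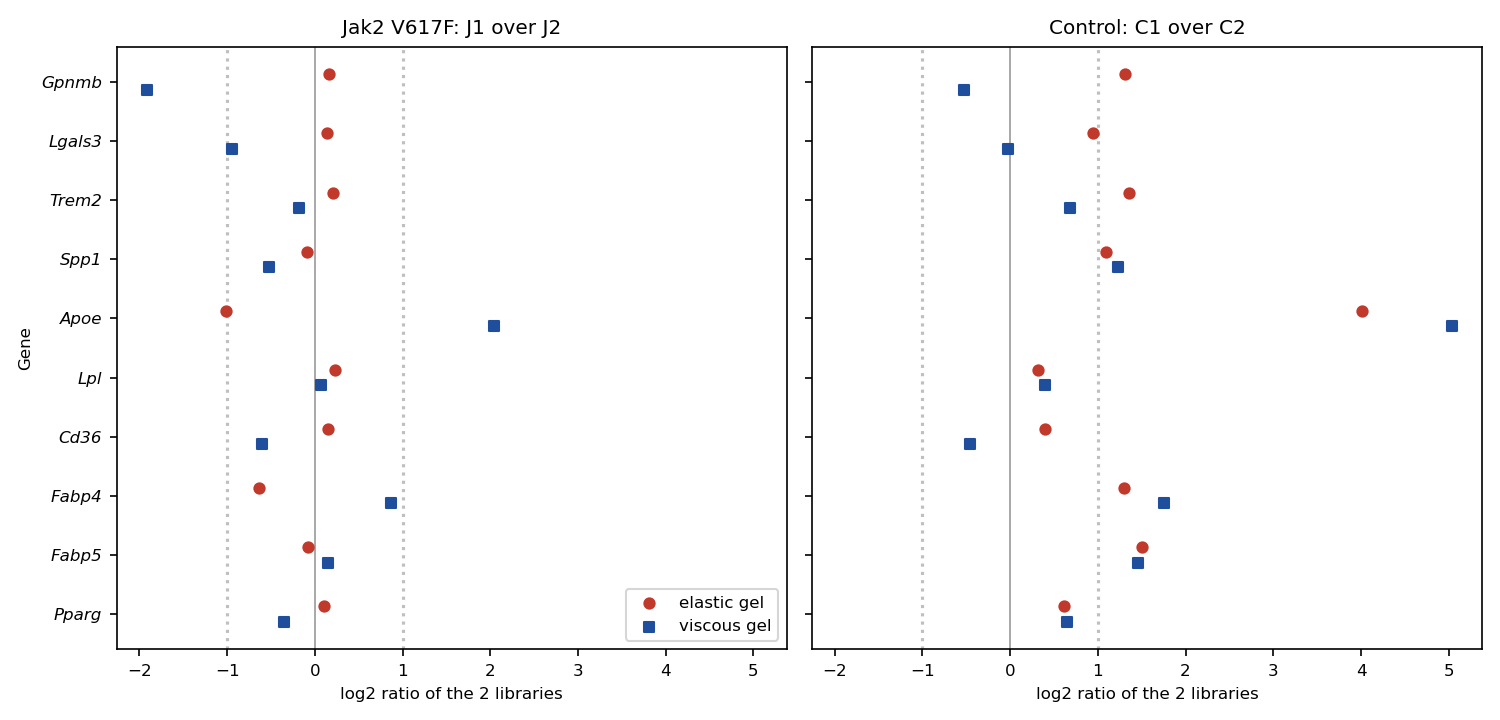
Log2 ratio between the 2 libraries of each group, for Jak2 V617F (J1 over J2) and control cells (C1 over C2); circles are elastic and squares viscous gel, and dotted lines mark 2-fold. In control cells Apoe, Fabp4, Fabp5 and Spp1 exceed 2-fold in both gels, and the Apoe ratio reaches 33.0; in Jak2 V617F cells Apoe does, with ratios of 0.50 and 4.12 on opposite sides of 1.

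Jak2 V617F cells were compared with control cells in each gel and on counts summed per title number, 2 sums against 2. Lpl was 1.82-fold higher in elastic gel (log2 fold change 0.87, SE 0.20, 95% interval 0.40 to 1.33), 2.33-fold higher in viscous gel (1.22, SE 0.20, 0.75 to 1.69) and 2.09-fold higher on summed counts (1.06, SE 0.18, 0.59 to 1.54). These intervals are not adjusted for the number of IDs tested. By edgeR's quasi-likelihood test its adjusted p-values were 0.937, 0.591 and 0.792, so that it was not called. By p it ranked 34th and 14th of 14785 IDs in elastic and viscous gel and 31st of 15239 on summed counts. DESeq2 called it in all 3, with adjusted p = 0.0335, 4.63e-05 and 0.000471, whereas limma-voom gave 0.946, 0.511 and 0.788. Over 16 alternatives in each gel the log2 fold change was 0.72 to 1.03 and 1.04 to 1.43, with adjusted p from the DESeq2 values up to 1 and 0.965. Alternatives that left out a library of the other gel could hardly move these fold changes. Without number C1 the summed difference was 2.37-fold.

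Pparg was 1.04-fold higher in Jak2 V617F cells in elastic gel (log2 fold change 0.05, SE 0.35) and 2.14-fold higher in viscous gel (1.1, SE 0.35, 95% interval 0.27 to 1.93), with edgeR adjusted p = 0.991 and 0.664. On summed counts it was 1.61-fold higher (adjusted p = 0.792), and 2.05-fold without number C1. Spp1 was lower in Jak2 V617F cells, 2.04-fold in elastic gel (−1.03, SE 0.50), 2.26-fold in viscous gel (−1.18, SE 0.50) and 2.13-fold on summed counts (−1.09, SE 0.42, 95% interval −2.23 to 0.05). None of these was called (edgeR adjusted p = 0.937, 0.664 and 0.792). The summed difference for Spp1 was 1.34-fold without number C1 and 2.90-fold without number C2.

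For Apoe, Fabp4, Fabp5 and Trem2 the direction of the genotype difference rested on which control number was kept. On summed counts Apoe was 3.90-fold lower in Jak2 V617F cells (log2 fold change −1.96, SE 1.42, 95% interval −5.78 to 1.86), Fabp5 1.61-fold (−0.68, SE 0.52), Fabp4 1.34-fold (−0.42, SE 0.56) and Trem2 1.38-fold lower (−0.46, SE 0.35). Without number C1, Jak2 V617F cells were 3.12-fold higher for Apoe, 1.51-fold for Fabp4, 1.18-fold for Fabp5 and 1.09-fold for Trem2. Without number C2, they were 7.43-fold lower for Apoe, 2.01-fold for Fabp4, 2.35-fold for Fabp5 and 1.83-fold for Trem2. In that last fit edgeR called 6 of the 10 members (these 4, Spp1 and Lpl), but it also called 16.6% of the 16004 IDs tested, with 1 sum standing for control cells and assumed to vary like the Jak2 V617F sums. Without number C1 it called 0 of 10 members and 0% of 15706 IDs, although 5 members and 12.7% of IDs had an unadjusted p under 0.05; without number C2 these were 7 members and 32.2%. The Apoe difference also depended on how libraries were averaged, at −0.70 by limma-voom, which averages log values.

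Gpnmb (1.61-fold lower in Jak2 V617F cells on summed counts, log2 fold change −0.69, SE 0.45), Lgals3 (1.503-fold lower, −0.59, SE 0.29) and Cd36 (1.08-fold higher, 0.12, SE 0.19) were not called either. Without number C1 they were at −0.54, −0.36 and 0.10. Lgals3 was lower in both gels, with intervals of −1.81 to 0.18 in elastic and −1.44 to 0.55 in viscous gel. Cd36 was 1.21-fold lower in elastic and 1.34-fold higher in viscous gel.

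By edgeR, 0 of the 10 members passed an adjusted p of 0.05 in each genotype comparison, where 0% of all IDs did. At an unadjusted p under 0.05 stood 1 member in elastic gel (Lpl), 2 in viscous gel (Lpl and Pparg) and 1 on summed counts (Lpl), against 4.42%, 7.31% and 5.22% of all IDs. limma-voom called 0 members and 0% of all IDs in each, and DESeq2 called 1 member, Lpl, against 0.298%, 0.413% and 0.696% of all IDs. On summed counts the Jak2 V617F level was the higher one for 3 members and the lower one for 7, with a median log2 fold change of −0.53, beside −0.005 over all IDs, of which 49.2% were higher. Without number C1, 3 were lower. In elastic gel 2 members were higher and 8 lower, against 48.4% of all IDs higher, and in viscous gel 3 were higher and 7 lower, against 48.7%. Without both C1 libraries 5 were lower in elastic and 3 in viscous gel.

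**Figure D4:**
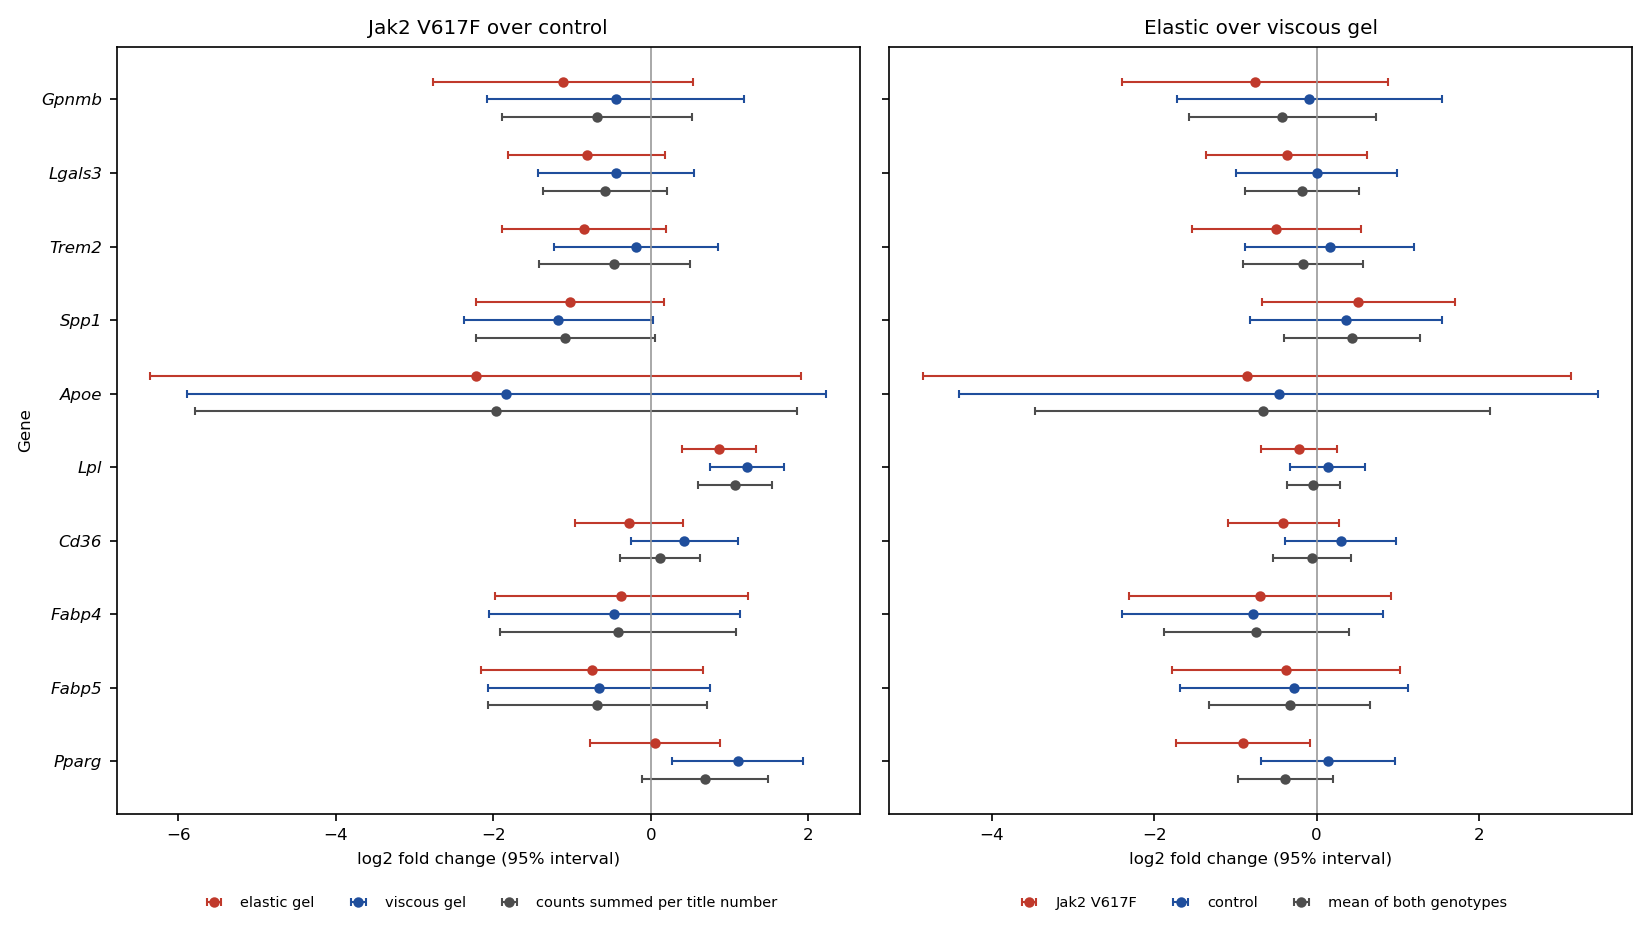
Log2 fold changes with unadjusted 95% intervals from the edgeR fits for each gene: Jak2 V617F over control (left) and elastic over viscous gel (right). The 3 Lpl intervals for genotype lie above 0, as does that of Pparg in viscous gel; those of Apoe are the widest, and in the gel comparison only the Pparg interval in Jak2 V617F cells excludes 0.

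Elastic gel was compared with viscous gel in each genotype and averaged over both. In Jak2 V617F cells Pparg was 1.88-fold lower in elastic gel (log2 fold change −0.91, SE 0.34, 95% interval −1.74 to −0.09), and both elastic libraries lay below both viscous ones. So they did for Trem2, Lpl, Cd36 and Fabp5, 5 of 10 members in all, against 20.6% of all IDs, and Spp1 alone lay above, against 19.4%. Pparg was not called by edgeR (adjusted p = 1), and over 18 alternatives its log2 fold change was −1.08 to −0.72 with adjusted p of 0.382 to 1. Alternatives that left out only control libraries could hardly move that fold change. Spp1 was 1.43-fold higher in elastic gel in these cells (0.52, SE 0.49), Gpnmb 1.69-fold lower (−0.76, SE 0.68) and Fabp4 1.62-fold lower (−0.70, SE 0.67). Trem2 (1.41-fold), Cd36 (1.33-fold), Fabp5 (1.30-fold) and Lgals3 (1.29-fold) were lower in elastic gel, with intervals that included 0. Apoe was at −0.86 (SE 1.67). These intervals use 1 spread per gene over all 4 groups, so the gap between C1 and C2 enters them. With a term for the title number, edgeR gave unadjusted p = 0.0383 for Fabp5 and 0.0471 for Trem2 (adjusted p = 0.654 and 0.698). For Cd36 and Lgals3 that fit gave unadjusted p = 0.237 and 0.453. The fold changes in Jak2 V617F cells rest on Jak2 V617F libraries, whereas their SEs, intervals and p-values draw on the spread of all 8 libraries. Without both C1 libraries in the fit, Pparg was again at −0.91, Spp1 at 0.52 and Gpnmb at −0.76. The Gpnmb value turned to 0.49 without the J2 library in viscous gel.

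In control cells Pparg was 1.1-fold higher in elastic gel (log2 fold change 0.14, SE 0.35), Spp1 1.29-fold higher (0.37, SE 0.49) and Fabp4 1.73-fold lower (−0.79, SE 0.67). With C2 libraries alone for control cells these were at 0.16, 0.46 and −0.44. Fabp5 was at −0.28 (SE 0.59) with and −0.31 without the C1 libraries. Gpnmb (−0.09, SE 0.68), Cd36 (0.30, SE 0.29) and Trem2 (0.16, SE 0.43) were at −1.12, −0.13 and −0.29 without them.

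Lgals3 averaged 2444 ± 1096 CPM in elastic and 2443 ± 33.4 CPM in viscous gel in control cells (SD, n = 2 each), and its log2 fold change was −0.56 without the C1 libraries. For Apoe it was −0.47 (SE 1.64), 0.52 without both C1 libraries, and between −3.57 and 3.62 with 1 control library left out. Lpl was 1.101-fold higher in elastic gel in control cells (0.14, 95% interval −0.33 to 0.60; 0.19 without the C1 libraries) and 1.16-fold lower in Jak2 V617F cells (−0.22, −0.68 to 0.25). For Lpl these intervals leave out a 2-fold difference between the gels in either genotype.

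In Jak2 V617F cells 1 member, Spp1, was higher in elastic gel, against 47.9% of all IDs, and in control cells 6 were and 4 were lower, against 50.2% of IDs higher. The 4 lower members in control cells became 9 without the C1 library in elastic gel, 1 without the C2 library in elastic gel, 2 without C1 in viscous gel and 7 without C2 in viscous gel. The 9 lower members in Jak2 V617F cells became 8 without J1 in viscous gel and 7 without J2 in viscous gel. They stayed at 9 without J1 or without J2 in elastic gel. Averaged over genotypes, Spp1 was the member with a positive difference (1.36-fold higher in elastic gel, log2 fold change 0.44, SE 0.35), and the other 9 were negative, from −0.04 (Lpl) to −0.74 (Fabp4). Fabp5 was at −0.33 (SE 0.41), Gpnmb at −0.42 (SE 0.48), Apoe at −0.66 (SE 1.17), Pparg at −0.39 (SE 0.24), Lgals3 at −0.18 (SE 0.29), Trem2 at −0.17 (SE 0.31) and Cd36 at −0.06 (SE 0.20). Without both C1 libraries Spp1 was at 0.49, Fabp4 at −0.57, Gpnmb at −0.94, Lgals3 at −0.47, Trem2 at −0.39, Cd36 at −0.27 and Apoe at −0.17, while Fabp5, Pparg and Lpl were at −0.35, −0.37 and −0.02. The median was −0.26 over the 10 members and −0.004 over all IDs, of which 49% were positive. The count of 9 lower members was the same without both C1 libraries, but was 5 without the C2 library in elastic gel and 5 without the C1 library in viscous gel. In no member did all 4 elastic libraries lie on 1 side of all 4 viscous libraries, against 2.07% of all IDs above and 1.66% below. Without the C1 libraries Spp1 lay above, against 7.6% of IDs, and Trem2, Cd36 and Fabp5 lay below, against 7.05%. Within every title number Spp1 was higher in elastic gel, with ratios of 1.69 (J1), 1.25 (J2), 1.25 (C1) and 1.38 (C2). Fabp5 was lower within every number, at 0.71, 0.83, 0.83 and 0.80 in that order. The other members did not keep 1 direction, and the share of all IDs that did was not computed.

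By edgeR, 0 of 10 members and 0% of the 14785 IDs were called for elastic against viscous gel in Jak2 V617F cells, in control cells or over both. At an unadjusted p under 0.05 stood 1 member in Jak2 V617F cells (Pparg) and 0 in control cells and over both, against 3.08%, 4.85% and 6.28% of all IDs. A term for the title number in the edgeR fit put 4 members under that p in Jak2 V617F cells (Spp1, Trem2, Fabp5 and Pparg). It put 3 there over both genotypes (Spp1, Fabp5 and Fabp4) and 0 in control cells. More of all IDs also stood under that p with this term than without it in each comparison, and 0 members were called. limma-voom called 0 members and 0% of IDs in each. DESeq2 called 0 members, against 0.237%, 0.237% and 0.906% of IDs.

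Whether the gel effect differed by genotype was tested as an interaction, as the effect in the mutant minus the effect in the control. For Pparg it was −1.05 on the log2 scale (SE 0.49, 95% interval −2.22 to 0.12), with Jak2 V617F cells lower and control cells slightly higher in elastic gel. For Cd36 it was −0.71 (SE 0.40, −1.68 to 0.26), for Lpl −0.36 (SE 0.27, −1.01 to 0.30) and for Spp1 0.15 (SE 0.70, −1.52 to 1.82). Without both C1 libraries these were at −1.07, −0.28, −0.40 and 0.05. Gpnmb (−0.67, SE 0.96), Lgals3 (−0.37, SE 0.58) and Fabp4 (0.09, SE 0.94) were at 0.37, 0.19 and −0.26 without them. Trem2 was at −0.66 (SE 0.61) with and −0.21 without them, Apoe at −0.39 (SE 2.33) and −1.38, and Fabp5 at −0.10 (SE 0.83) and −0.07. All edgeR adjusted p-values were 1, with 0 members at an unadjusted p under 0.05, against 1.72% of all IDs. With a term for the title number, edgeR had 1 member under that p (Pparg, unadjusted p = 0.0302), beside 531 of the 14785 IDs, and called 0 members. DESeq2 called 0 members and 0.0135% of IDs, and limma-voom called 0 members and 0%. The difference was positive for 2 members, Spp1 and Fabp4, against 45.8% of all IDs, and the intervals of all 10 included 0. The count of 8 lower members became 3 without the C1 library in elastic gel, 10 without the C2 library in elastic gel, 10 without C1 in viscous gel and 6 without C2 in viscous gel.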

How the data were processed

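Libraries were made with a Kapa mRNA Hyperprep kit, per the labels' protocols, from cells freed from gel with collagenase and alginate lyase. Salmon, DESeq2 and the GRCm38 build are named in the submitters' processing notes, without versions. The deposited counts are whole numbers per Ensembl gene ID, not normalized; no source used here says how Salmon's estimates were summed and rounded. No ID had fewer than 10 counts over the 8 libraries. The per-library tables repeat the series table value for value.

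CPM used TMM scaling, and log2 CPM a prior count of 2. Comparisons used the edgeR (version 4.0.16, R 4.3.3) quasi-likelihood test on 4 group means over all 8 libraries, after filterByExpr, with Benjamini-Hochberg adjustment over all IDs; a call is an adjusted p under 0.05. Standard errors came from the F statistic. DESeq2 1.42.0 (an adjusted p of NA was not a call), limma-voom 3.58.1, 2 other scalings, 2 other filters, left-out libraries and a term for the title number were alternatives. Code was tested on simulated data. The rule for named genes takes all 10 members in each comparison. The members and lists were chosen with earlier results of these data known. Same-number libraries deviated from their group means with a correlation of −0.09 in Jak2 V617F and 0.53 in control cells. They thus moved together in control cells but not in Jak2 V617F cells. What a number marks is not in the labels, and for that reason numbers were not taken as pairs in the main gel comparisons. The term for the title number covers pairing as an alternative only, whereas the genotype sums did join libraries by number.

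The RefSeq table (GRCm38.p6) paired 0 of 17640 Ensembl IDs with a symbol; members were located in it by symbol. The 5 pathway lists and 12 lists of cell type markers were therefore not run, and the labelled cell type was not checked. IDs most like the members are not given, since the C1 libraries stand apart from the other 6.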

Additional observations from a re-analysis of the deposited data

How the results depend on the processing

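Each group has 2 libraries, and for Pparg, with as few as 68 counts in a library, counting error adds to the spread. Of 1130 fold changes of members under alternatives, 86 lay on the other side of 0, 81 of them with a library left out. The 1130 include fits that left out a library outside the groups compared. Such a fit can hardly move a fold change, so the share that reversed understates how much the directions depend on single libraries. Scalings, filters and tools moved 3 of 420 across 0; their largest shift was 1.26 (Apoe, limma-voom). Unless named, causes were not tested.

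In this paragraph comparisons are given in the order elastic against viscous gel in Jak2 V617F cells, in control cells, over both and as a difference, then Jak2 V617F against control in elastic gel, in viscous gel and on sums. DESeq2 called 35, 35, 134, 2, 44, 61 and 106 IDs, where edgeR called 0, and 1 member (Lpl) in each genotype comparison. For elastic against viscous gel over both genotypes, edgeR called 1 ID with no filter, 1 with at least 50 counts in 2 libraries, and 2 without both C1 libraries. In Jak2 V617F cells it called 1 without both C1 libraries and 1 with only the 4 libraries compared. The mean over 8 libraries in place of sums called 2 IDs by genotype. Leaving out 1 sum gave 0 to 2664 IDs and 0 to 6 members. With the replicate block of title numbers, edgeR called 5 IDs and 0 members for elastic against viscous gel over both genotypes, and the adjusted p was 0.25 for Spp1 (log2 0.47) and 0.294 for Fabp5. A block with the Jak2 V617F numbers crossed, chosen after seeing the data, called 10 IDs.

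Lgals3 in control cells (elastic over viscous, 0.001) was −0.005 with the stricter filter, −0.014 with upper-quartile scaling, −0.073 by limma-voom, −0.076 with the replicate block, −0.076 with it crossed and −0.56 without number C1. Leaving out both C1 libraries also turned Jak2 V617F over control in elastic gel to 0.88 for Apoe, 0.41 for Fabp4 and 0.19 for Fabp5. In viscous gel it turned it to 2.25 for Apoe, 0.67 for Fabp4, 0.26 for Fabp5 and 0.19 for Trem2. Elastic over viscous in control cells became 0.52 for Apoe, −0.287 for Trem2 and −0.13 for Cd36. The difference of the gel effects became 0.37 for Gpnmb, −0.26 for Fabp4 and 0.19 for Lgals3.

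Single libraries or sums left out gave these ranges of log2 fold change across 0. Jak2 V617F over control in elastic gel ran from −3.14 to 0.88 for Apoe, −0.88 to 0.41 for Fabp4, −1.31 to 0.19 for Fabp5 and −0.23 to 0.40 for Pparg. In viscous gel it ran from −1.69 to 0.22 for Gpnmb, −0.48 to 0.19 for Trem2, −3.19 to 2.25 for Apoe, −1.08 to 0.67 for Fabp4 and −1.20 to 0.26 for Fabp5. On sums it ran from −0.87 to 0.12 for Trem2, −2.89 to 1.64 for Apoe, −0.028 to 0.25 for Cd36, −1.004 to 0.60 for Fabp4 and −1.23 to 0.24 for Fabp5. Elastic over viscous in Jak2 V617F cells ran from −1.42 to 0.49 for Gpnmb, −1.54 to 0.50 for Apoe and −0.76 to 0.18 for Lgals3. In control cells it ran from −0.88 to 0.42 for Gpnmb, −0.28 to 1.11 for Spp1, −0.67 to 0.69 for Trem2, −3.57 to 3.62 for Apoe, −0.04 to 0.35 for Lpl, −1.57 to 0.35 for Fabp4, −1.22 to 0.63 for Fabp5, −0.55 to 0.40 for Lgals3 and −0.20 to 0.51 for Pparg. Over both it ran from −0.82 to 0.20 for Gpnmb, −0.58 to 0.10 for Trem2, −2.21 to 1.38 for Apoe, −0.13 to 0.067 for Lpl, −0.19 to 0.11 for Cd36, −0.80 to 0.12 for Fabp5 and −0.46 to 0.091 for Lgals3. The difference ran from −1.33 to 0.58 for Gpnmb, −0.59 to 0.79 for Spp1, −1.19 to 0.17 for Trem2, −4.48 to 2.71 for Apoe, −1.05 to 0.87 for Fabp4, −1.01 to 0.84 for Fabp5 and −0.77 to 0.18 for Lgals3.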
